A study of Mus musculus with 9 samples.

Results

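The Rosa26 locus of mouse chromosome 6 carries the Nup98‐Hoxa10hd fusion (NA) in these mice, and 10 genes around it were examined among the 37980 genes measured. Rad18, Srgap3, Thumpd3, Gt(ROSA)26Sor, Setd5, Lhfpl4, Mtmr14, Cpne9, Brpf1 and Ogg1 were taken as a named list of neighbours, and all 10 were found by symbol. The list was chosen with earlier results of these data known. They span 715.2 kb of the mm10 (GRCm38) genome. The question was whether genes beside the targeted allele differ between myeloid progenitors (MPs) with and without NA.

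RNA was sequenced from 4 NA MP and 5 WT MP samples, each of 100000 Lin-ckit+Sca1- bone marrow cells sorted from transplanted mice. NA MPs were Tdtomato+ cells from recipients of multipotent progenitors (MPPs) of NA LSL/+; Vav‐Cre mice. In these C57BL/6 mice the fusion was targeted to Rosa26 through homologous recombination in an ES line, is heterozygous, and is switched on by a Cre recombinase driven in blood cells by the Vav promoter. In WT MPs, sorted as CD45.2+ cells from mice given WT MPPs, neither the LSL allele nor Vav‐Cre is named for the donor, so effects of the fusion, of the inserted cassette, of Tdtomato and of Cre cannot be told apart. All recipients were adult irradiated C57BL/6 mice. The labels place the sort at 3 months post‐transplantation in both groups and the methods of the study place it later. The study elsewhere describes recipients as CD45.2+ and WT donor cells as CD45.1+, so the origin of the WT MPs, donor or recipient, cannot be told from its text. Whether each sample came from a separate mouse is not named, so p‐values measure the spread between samples, which may be technical. The position of the insertion within Rosa26 is not given in the sources used here.

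Rosa26 is a ubiquitously active locus found in a gene trap screen and widely used to express transgenes from its promoter, since mice that lack its transcript develop normally. Gt(ROSA)26Sor is a non‐coding RNA. Its promoter is bidirectional, with Setd5 transcribed away from it in the opposite direction, and the tail of Thumpd3 meets its other end.

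Gt(ROSA)26Sor and Setd5 start 32 bases apart and head to head. Exon 1 of Gt(ROSA)26Sor is shown because it borders this shared start, but the bases between the starts are not part of it, and the RefSeq window of Setd5 lies at a start inside the gene and is not shown. The exon lies on the minus strand at chr6:113077174-113077333 (GENCODE M21, GRCm38). Beside it stand the RefSeq promoter windows (250 bases before to 50 after the start, GRCm38.p6) of Thumpd3, the other gene that adjoins Rosa26, at chr6:113046052-113046351, and of Brpf1, a gene of the same list without a detected difference, at chr6:113306887-113307186, both on the plus strand. Capitals mark matches on either strand to the CCAAT box (CCAAT), the GC box (GGGCGG) and the core of ETS factor sites (CCGGAAG).
Gt(ROSA)26Sor exon 1: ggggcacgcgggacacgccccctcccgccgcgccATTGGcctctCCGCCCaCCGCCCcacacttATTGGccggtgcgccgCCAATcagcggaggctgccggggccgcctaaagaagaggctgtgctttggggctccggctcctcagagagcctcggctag
Thumpd3 promoter: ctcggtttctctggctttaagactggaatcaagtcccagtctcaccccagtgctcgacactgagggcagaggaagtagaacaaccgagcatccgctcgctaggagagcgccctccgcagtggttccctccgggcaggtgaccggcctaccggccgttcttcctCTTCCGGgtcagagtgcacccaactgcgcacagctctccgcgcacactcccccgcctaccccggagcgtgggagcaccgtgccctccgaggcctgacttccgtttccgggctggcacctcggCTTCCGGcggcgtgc
Brpf1 promoter: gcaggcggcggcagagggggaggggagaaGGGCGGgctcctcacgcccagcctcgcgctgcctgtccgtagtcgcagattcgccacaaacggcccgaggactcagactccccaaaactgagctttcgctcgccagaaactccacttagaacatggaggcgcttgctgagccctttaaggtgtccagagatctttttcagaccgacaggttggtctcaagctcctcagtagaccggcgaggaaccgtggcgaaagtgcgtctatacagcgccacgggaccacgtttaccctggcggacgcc

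The 160 bases of Gt(ROSA)26Sor exon 1 held 3 CCAAT boxes and 2 GC boxes, and no ETS core. The Thumpd3 window held 2 ETS cores, and the Brpf1 window 1 GC box. Among 32851 RefSeq promoter windows of mouse genes, 37.4% held a CCAAT box, 35.7% a GC box and 8.86% an ETS core, shares that apply to windows of 300 bases and not to the shorter exon. RefSeq windows were matched for 9 of the 10 genes, 10 windows in all. ETS cores also occurred in windows of Rad18, Mtmr14 and Ogg1, and so in genes that were lower in NA MPs and in a gene that was not. The matches are descriptions of these letters and not sites of binding.

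The 9 samples held from 5557701 to 8106138 reads once the authors' scaling between samples was undone. Values are given as deposited, in counts divided by a size factor per sample (normalised counts), in which 1 read was worth 0.827 to 1.2 and 3 reads 2.48 to 3.6. NA MP and WT MP samples parted on principal component 1 (65.8% of variance), and NA MP replicate 1 lay apart from the other 8 samples on component 2. No pair of samples within a group was alike to within sampling noise (chi‐square per degree of freedom 1.21 to 2.82). Transcripts of both partners of the fusion were higher in NA MPs, Nup98 at 956 ± 81.8 (SD, n = 4) against 599 ± 29.9 (SD, n = 5) and Hoxa10 at 129 ± 17.7 against 8.05 ± 2.57. The groups did not overlap for either gene, in the direction that the labels imply, as for 13.5% of all tested genes. Counts per gene do not separate transcripts of the fusion from those of the endogenous genes.

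Of the 10 genes, 8 passed the filter (a value of at least 10 in at least 4 samples) and 6 were lower in NA MPs at an adjusted p under 0.05, from limma with Benjamini‐Hochberg adjustment over all 11987 tested genes. Gt(ROSA)26Sor, Setd5, Thumpd3, Srgap3, Mtmr14 and Rad18 fell and 0 genes rose, by limma, by voom and at an unadjusted p under 0.05 alike. Brpf1 and Ogg1 did not pass the test, and Lhfpl4 and Cpne9 were too low to be tested. Across all tested genes 34.3% passed, 17.3% in the lower and 16.9% in the higher direction. For 5 of the 8 genes tested, all of them among the 6 that fell, every NA MP sample lay below every WT MP sample. The same held for 12.8% of all tested genes. The median log2 fold change was -0.31 over the 8 genes tested and -0.008 over all tested genes. Without NA MP replicate 1, 6 of the genes were again lower.

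**Figure D1:**
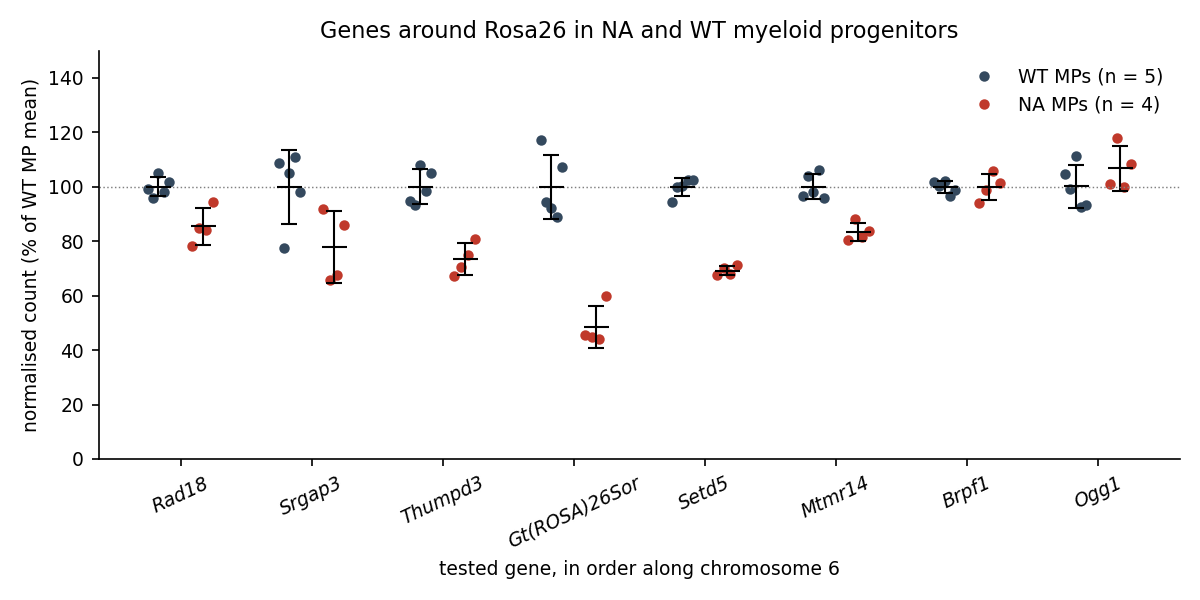
Normalised count of each of the 8 tested genes in each sample, as a percentage of the mean over WT MPs (vertical axis), with genes in their order along chromosome 6. Points are samples, dark for WT MPs (n = 5) and red for NA MPs (n = 4), and bars are mean ± SD. NA MPs lie below all WT MPs for Rad18, Thumpd3, Gt(ROSA)26Sor, Setd5 and Mtmr14, and overlap them for Srgap3, Brpf1 and Ogg1.

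Gt(ROSA)26Sor (ENSMUSG00000086429, chr6:113067428-113077333, minus strand) showed the largest fold change of the tested genes in the list. Its normalised counts were 27.6, 27.3, 26.7 and 36.4 in NA MP replicates 1 to 4, and 71.2, 57.3, 56.0, 54.0 and 65.2 in WT MP replicates 1 to 5. The highest NA MP sample, replicate 4, thus remained well under the lowest WT MP sample. The means were 29.5 ± 4.59 (SD, n = 4) and 60.8 ± 7.22 (SD, n = 5), a log2 fold change of -1.02 (SE 0.147, adjusted p = 3.35e-07 by limma). NA MPs held 49.3% of the WT level, with a 95% confidence interval from 40.1% to 60.5%. These values rest on 23 to 44 reads per NA MP sample and 54 to 70 per WT MP sample. Those are the lowest counts among the genes of the list without overlap between the groups. Of all tested genes 1.5% had a fold change as low or lower. For the other genes of the list that fell this share was 3.53% (Setd5), 4.5% (Thumpd3), 5.88% (Srgap3), 9.54% (Mtmr14) and 11.4% (Rad18).

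Setd5 (ENSMUSG00000034269, chr6:113077365-113153435, plus strand) encodes a chromatin regulator with a SET domain that associates with the NCoR‐HDAC3 and PAF1 complexes. NA MP samples held 1019, 1058, 1028 and 1075 normalised counts and WT MP samples 1429, 1512, 1516, 1548 and 1550. The highest NA MP sample, at 1075, lay far below the lowest WT MP sample, at 1429. The mean fell from 1511 ± 49.1 to 1045 ± 25.8, a log2 fold change of -0.53 (SE 0.0347, adjusted p = 1.36e-16). The NA level was 69.2% of WT (95% interval 65.9% to 72.6%). As the most counted gene of the list it had the smallest standard error.

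Thumpd3 (ENSMUSG00000030264, chr6:113046225-113068273, plus strand) encodes a tRNA guanosine methyltransferase. Its normalised counts were 248, 260, 276 and 297 in NA MPs and 349, 344, 398, 362 and 387 in WT MPs, again without overlap. The log2 fold change was -0.44 (SE 0.0614, adjusted p = 1.33e-07), and NA MPs held 73.5% of the WT level (67.4% to 80.1%). Thumpd3 and Gt(ROSA)26Sor share 145 exonic bases on opposite strands. The library kit does not mark strand, so reads from the shared bases cannot be told apart, and the counts of this pair are uncertain to that extent.

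The 3 genes at the locus did not fall to the same degree. Within a sample, Gt(ROSA)26Sor amounted to 2.58% to 3.38% of the Setd5 count in NA MPs and to 3.49% to 4.98% in WT MPs. The difference in log2 ratio was -0.51 (exact two‐sided permutation test over all 126 splits, p = 0.0159, the smallest these groups allow, and 0.0199 after Benjamini‐Hochberg adjustment over the 5 ratios compared). It was -0.61 without NA MP replicate 4, the highest for Gt(ROSA)26Sor, and -0.44 without WT MP replicate 1. Against Thumpd3, Gt(ROSA)26Sor amounted to 9.68% to 12.3% in NA MPs and 14.1% to 20.4% in WT MPs, a difference of -0.60 (exact p = 0.0159, adjusted 0.0199). For Thumpd3 relative to Setd5 the ranges overlapped, 24.4% to 27.6% against 22.8% to 26.3%, and the difference of 0.09 did not pass (exact p = 0.175, adjusted 0.175). Gt(ROSA)26Sor thus fell further than both of the protein genes that adjoin it, while no difference between those was detected with these samples.

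**Figure D2:**
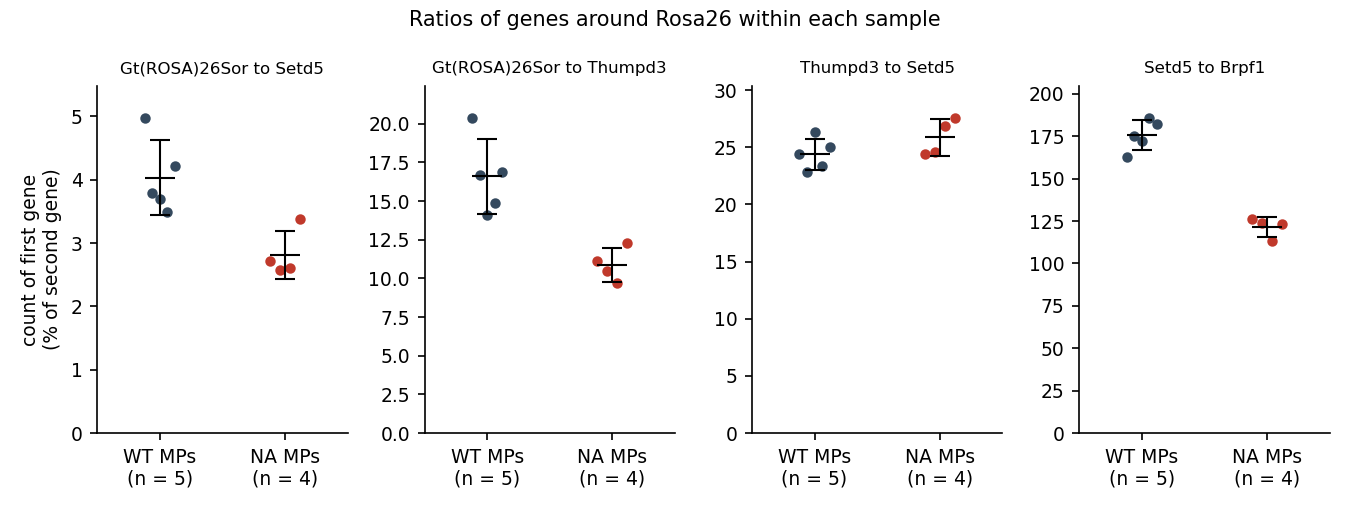
Count of one gene as a percentage of the count of another within each sample (vertical axes, each from 0), for 4 of the 5 ratios compared. Points are samples of WT MPs (n = 5) and NA MPs (n = 4), and bars are mean ± SD. Gt(ROSA)26Sor is lower in NA MPs relative to Setd5 and to Thumpd3, Thumpd3 relative to Setd5 overlaps, and Setd5 relative to Brpf1 is 113% to 126% in NA MPs against 163% to 186% in WT MPs.

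Both DNA repair genes of the list were measured, and they differed in outcome. Rad18 (ENSMUSG00000030254, chr6:112619850-112696686, minus strand), the ubiquitin ligase that modifies PCNA at stalled replication forks, had normalised counts of 343, 373, 369 and 415 in NA MPs and 435, 421, 461, 431 and 447 in WT MPs. The groups came close, at 415 and 421, but did not overlap. The log2 fold change was -0.23 (SE 0.0544, adjusted p = 0.000837), which put NA MPs at 85.3% of WT (79.1% to 92.0%). Rad18 starts 380.6 kb from the start of Gt(ROSA)26Sor, the farthest of the genes that fell. Ogg1 (ENSMUSG00000030271, chr6:113326972-113335068, plus strand), the glycosylase that removes 8‐oxoguanine, held 107, 125, 106 and 115 in NA MPs and 111, 105, 118, 98.1 and 98.8 in WT MPs. These ranges overlapped widely, with a log2 fold change of 0.09 (SE 0.0946, adjusted p = 0.497) and an NA level of 93.3% to 122% of WT (95% interval). Ogg1 shares exonic bases with Camk1 on the opposite strand, as Srgap3 does with Gm44081, Brpf1 with Gm15492 and, on its own strand, Thumpd3 with Gm22591, so the counts of these genes are uncertain to that extent.

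Brpf1 (ENSMUSG00000001632, chr6:113307137-113324860, plus strand), the scaffold of the MOZ and MORF histone acetyltransferases, is the other chromatin gene of the list beside Setd5. Its normalised counts were 811, 853, 911 and 874 in NA MPs and 878, 866, 881, 834 and 852 in WT MPs. NA MP samples included both the lowest and the highest value. The means of 863 ± 41.5 and 862 ± 19.9 gave a log2 fold change of -0.00 (SE 0.0395, adjusted p = 0.996), and the interval of the NA level, 94.6% to 106% of WT, lies wholly above that of Setd5. Within each sample the Setd5 count was 113% to 126% of that of Brpf1 in NA MPs and 163% to 186% in WT MPs, a difference in log2 ratio of -0.53 (exact p = 0.0159, adjusted 0.0199). The change in Setd5 and that in Brpf1, which starts 229.8 kb from Gt(ROSA)26Sor, thus differed. The ratio is made of the same values as given for each gene, and is not separate evidence.

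Mtmr14 and Srgap3 encode regulators of membrane lipids and of the cytoskeleton. Mtmr14 (ENSMUSG00000030269, chr6:113237843-113281392, plus strand), a myotubularin‐related phosphoinositide phosphatase, had normalised counts of 211, 231, 214 and 219 in NA MPs and 253, 272, 257, 278 and 251 in WT MPs. No sample crossed between the groups. The log2 fold change was -0.26 (SE 0.0644, adjusted p = 0.00139), or 83.5% of WT (76.3% to 91.4%). Srgap3 (ENSMUSG00000030257, chr6:112717971-112947266, minus strand), a Rac GTPase‐activating protein known mainly from neurons, had 80.4, 57.6, 59 and 75.2 in NA MPs and 95, 67.6, 91.7, 97.1 and 85.7 in WT MPs. WT MP replicate 2 fell within the range of NA MPs. Its log2 fold change of -0.36 (SE 0.122) passed with an adjusted p of 0.019, whereas the exact permutation test of this gene alone gave p = 0.0635. The call was lost without NA MP replicate 2 (adjusted p = 0.0893), without NA MP replicate 3 (0.08) and without WT MP replicate 4 (0.0578), so Srgap3 is the least firm of the 6.

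Lhfpl4 and Cpne9, the former with a role at inhibitory synapses and the latter a copine, a family of calcium‐dependent phospholipid‐binding proteins, were close to unmeasured in MPs. Lhfpl4 (ENSMUSG00000042873, chr6:113168090-113195384) had at most 2 reads in a sample and 6 in all 9 samples. Cpne9 (ENSMUSG00000030270, chr6:113282307-113305627) had at most 3 reads in a sample and 7 in all. Every value of either gene was at or under 3 reads, so a fall could not have been detected at this depth. Both lie between genes that were well measured.

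Levels of different genes were compared per kilobase of exon. In WT MPs Brpf1 stood highest at 127 ± 2.93 normalised counts per kilobase, followed by Mtmr14 at 87.2 ± 4.11, Setd5 at 82.3 ± 2.68 and Rad18 at 75.7 ± 2.64. The ranges of Mtmr14 and Setd5 overlapped, as did those of Setd5 and Rad18. Thumpd3 at 56.1 ± 3.63 and Ogg1 at 48.6 ± 3.90 also overlapped. Gt(ROSA)26Sor at 35.9 ± 4.26 and Srgap3 at 8.87 ± 1.21 lay apart below them, and Lhfpl4 and Cpne9 were at 0.0966 and 0.0926. In NA MPs Setd5, at 56.9 ± 1.41, stood below Rad18 at 64.7 ± 5.12, and Thumpd3, at 41.2 ± 3.20, stood below Ogg1 at 51.8 ± 4.15, in both cases with ranges that did not overlap. Gt(ROSA)26Sor was at 17.4 ± 2.71 in NA MPs. The order depends on the length used. Per kilobase of the longest transcript Setd5 was highest in WT MPs at 224, ahead of Brpf1 at 179, and in NA MPs Setd5 was at 155 and Brpf1 again at 179. On that scale both orders given for NA MPs were turned round, with Setd5 above Rad18 at 106 and Thumpd3, at 88, above Ogg1 at 70.7.

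**Figure D3:**
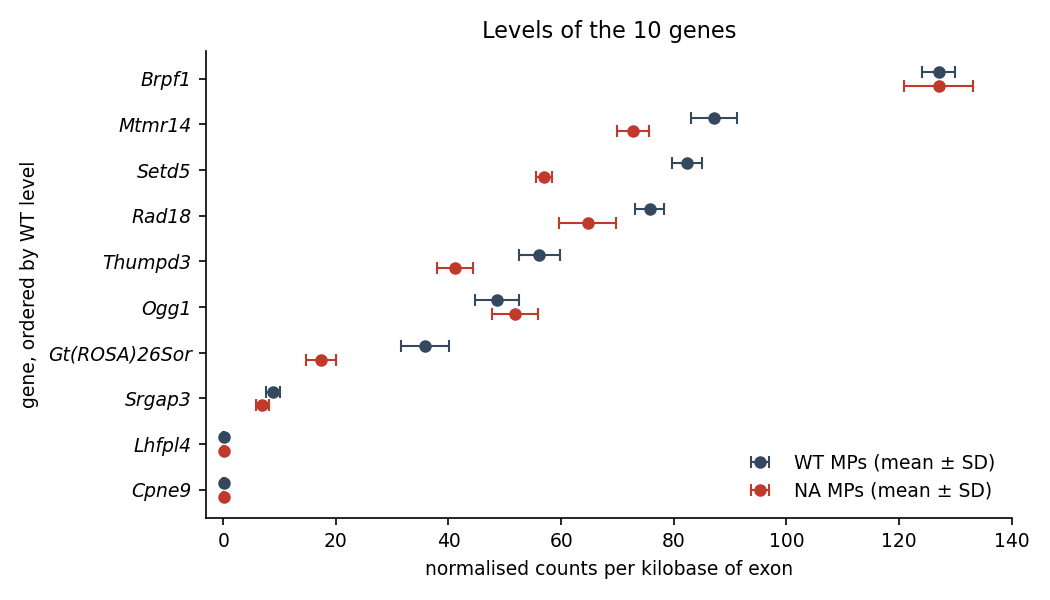
Normalised counts per kilobase of annotated exon (horizontal axis) for all 10 genes, ordered by their level in WT MPs. Points are means and bars ± SD, dark for WT MPs (n = 5) and red for NA MPs (n = 4). Brpf1 is highest in both groups at 127, and Lhfpl4 and Cpne9 lie next to 0.

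Ordered by position, the genes that fell form one run from Rad18 to Mtmr14, with Lhfpl4 inside it untested, and Brpf1 and Ogg1 follow at its end. The run covers 661.5 kb. On the side of Thumpd3 the NA level was 73.5% of WT for Thumpd3 at 31.1 kb, 77.9% for Srgap3 at 130.1 kb and 85.3% for Rad18 at 380.6 kb. On the side of Setd5 it was 69.2% for Setd5, 83.5% for Mtmr14 at 160.5 kb, 100% for Brpf1 at 229.8 kb and 106% for Ogg1 at 249.6 kb. Spearman's rank correlation of distance with the NA level was 0.922 over the 8 tested genes, with Gt(ROSA)26Sor and Setd5 tied at a rounded distance of 0.0 kb. The correlation is given as a description only, since the genes share the same samples. Within a sample Thumpd3 amounted to 69.6% to 74.9% of Rad18 in NA MPs and 80.1% to 86.5% in WT MPs (difference in log2 ratio -0.22, exact p = 0.0159, adjusted 0.0199). Thumpd3 thus fell further than Rad18, which starts farther from Rosa26. The intervals of Srgap3, Mtmr14 and Rad18 overlap, and differences among these were not tested.

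**Figure D4:**
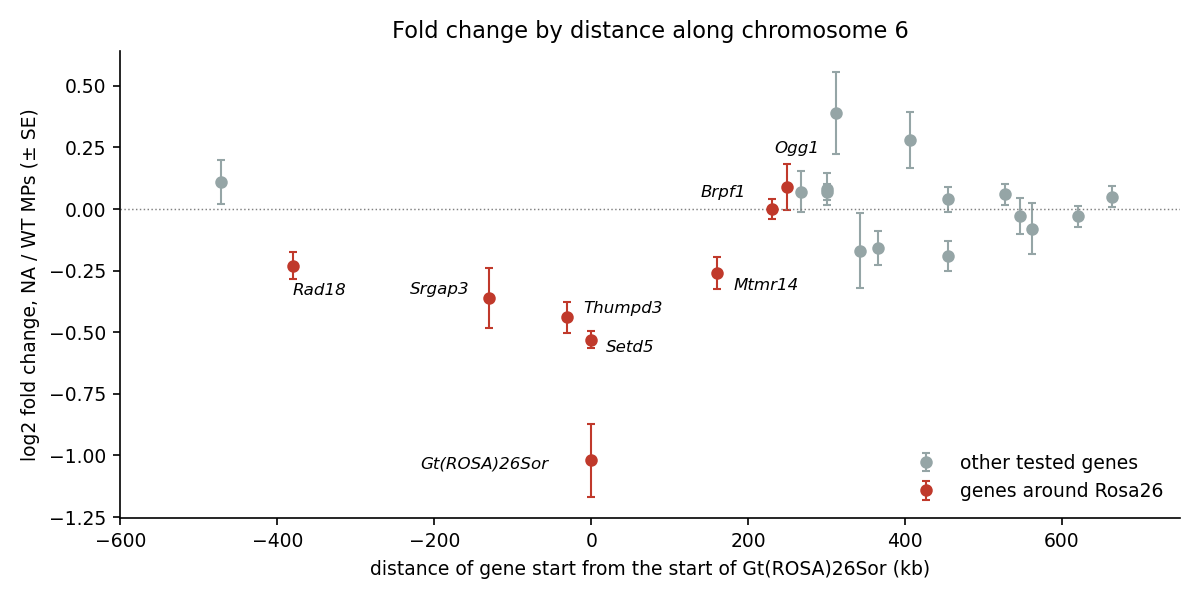
Log2 fold change of NA over WT MPs (vertical axis, ± SE) against the distance of each gene's start from that of Gt(ROSA)26Sor in kb (horizontal axis). Red points are the 8 tested genes of the list and grey points other tested genes within 1 Mb, without Lmcd1, which lies outside both axes. Gt(ROSA)26Sor, at -1.02, and Setd5, at -0.53, share the same position, and Brpf1, Ogg1 and most grey points lie near 0.

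Other genes close to Rosa26 were compared as a positional list. Within 1 Mb of the start of Gt(ROSA)26Sor lie 36 further annotated genes, of which 27 had any read, 16 were tested, 2 were lower in NA MPs and 0 were higher by limma. That is 12.5% against 34.3% of all tested genes, and the median log2 fold change was 0.047. At an unadjusted p under 0.05, 6 of the 16 passed, Arpc4, Ttll3 and Creld1 upward and Lmcd1, Fancd2 and Jagn1 downward. At least 34.3% of all tested genes pass that looser threshold, so this count is not read as an excess. None of the 4 further genes within 0.25 Mb reached the filter, so inside that distance the list holds every gene that was tested. The 4 tested genes nearest to Ogg1 on its far side did not pass, Camk1 with a log2 fold change of 0.07, Tada3 with 0.08, Arpc4 with 0.07 and Ttll3 with 0.39 (adjusted p = 0.0669). Beyond Rad18 the nearest tested gene, the pseudogene Gm5578 at 471.8 kb, did not pass either. Its log2 fold change was 0.11 (adjusted p = 0.368 by limma), and the groups overlapped. Over the rest of chromosome 6, beyond 1 Mb, 108 of 546 tested genes were higher and 109 lower, with a median of -0.012.

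The 2 neighbours that passed were Fancd2 and Lmcd1. Fancd2, the monoubiquitinated protein at the centre of the Fanconi anaemia repair pathway, starts 454.3 kb away on the side of Ogg1. It had 339, 395, 397 and 443 normalised counts in NA MPs and 460, 430, 432, 429 and 487 in WT MPs, with overlap. Its log2 fold change was -0.19 (SE 0.0596, adjusted p = 0.0118), and the call was lost without NA MP replicate 1 (-0.12, adjusted p = 0.102) and when GC content and length were corrected for (-0.142, 0.056), also together with a replicate block (-0.114, 0.16). Lmcd1, a LIM domain cofactor that restrains GATA6, starts 803.6 kb away beyond Rad18. It was listed at 0, 1.01, 4.45 and 0 in NA MPs and at 17.3, 13.7, 15.3, 16 and 14 in WT MPs. No NA MP sample held more than 4 reads and no WT MP sample fewer than 15, so its direction is clear while its fitted fold change depends on the pseudocount (-3.15 with 1, -1.718 with 5).

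Partners and relatives of the 10 genes were examined in 8 lists taken from textbook knowledge. Of 73 genes listed 66 were tested, 5 were higher and 10 lower in NA MPs, which is 22.7% against 34.3% of all tested genes, with a median log2 fold change of -0.025. Among the genes of Rad18‐dependent post‐replication repair, 1 rose and 4 fell of 13 tested. Shprh, a second ligase for PCNA, and Polh, the translesion polymerase eta, both fell by 0.31 on the log2 scale (adjusted p = 0.000211 and 0.00392). For Shprh, NA MPs held 312 ± 39.0 and WT MPs 386 ± 20.4 normalised counts, and for Polh 163 ± 17.5 and 202 ± 25.4. In base excision repair, where Ogg1 acts, 1 of 15 tested genes rose and 2 fell. Neil1, another glycosylase for oxidised bases, was at 74.2 ± 13.2 against 51.1 ± 11.7 (log2 fold change 0.55, adjusted p = 0.00776) and Lig3, a DNA ligase, at 427 ± 22.7 against 473 ± 24.3 (-0.15, adjusted p = 0.0252).

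The chromatin partners moved little. Of 8 tested subunits of the BRPF and MOZ complexes, Kat6a, the acetyltransferase MOZ, fell to 888 ± 29.8 from 996 ± 29.3 (log2 fold change -0.17, adjusted p = 0.000574) and Brd1, a paralogue of Brpf1, rose to 962 ± 48.3 from 886 ± 35.4 (0.12, adjusted p = 0.0201). Of 10 tested members of the NCoR‐HDAC3 and PAF1 complexes, with which Setd5 associates, Ncor1 fell by 0.14 and Ctr9 rose by 0.10 on the log2 scale (adjusted p = 0.000166 and 0.0361). None of these 4 genes changed as much as Setd5. Among the relatives of Mtmr14, 10 myotubularins were tested. Mtmr4 fell to 322 ± 10.7 from 442 ± 25 (-0.45, adjusted p = 4.8e-09), more than Mtmr14 itself on another chromosome, and Mtmr2 rose by 0.16 (adjusted p = 0.0364). Of 5 tested copines, Cpne8 fell to 12 ± 5.21 from 21.8 ± 1.84 (-0.89, adjusted p = 0.00407). Of 4 tested genes for RNA modification by THUMP domain enzymes, relatives or cofactors of Thumpd3, 0 passed, nor did the 1 tested relative of Srgap3.

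Marker genes of several cell types differed in level between the groups. Across all tested genes 34.3% passed, 16.9% higher and 17.3% lower, so a few passing markers in a list are not read as a difference of that list. Markers of myeloid progenitors were present in all samples, with a summed level of 164079 to 180320 in NA MPs and 160290 to 166868 in WT MPs, and 4 of 11 tested were higher and 1 lower. All 12 markers of pro‐B and pre‐B cells were higher in NA MPs, with a summed level of 1460 to 2574 against 374 to 403. Of 12 tested erythroid markers 10 were lower and 0 higher, at 5393 to 6855 against 9903 to 10952. Mast cell and basophil markers were higher for 5 of 6 (3910 to 4652 against 2571 to 2669) and stem and multipotent cell markers for 4 of 5 tested (846 to 999 against 501 to 577). Of the mature neutrophil markers 3 of 7 were higher and 1 lower (3253 to 5082 against 2773 to 3227), and of the megakaryocyte markers 1 of 7 was higher and 2 were lower (1451 to 1671 against 1446 to 1598). Of 8 T cell markers only Lck was tested, and it was higher, with a mean of 52.2 normalised counts in NA MPs against 11.0 in WT MPs. T cell markers summed to 50 to 71 against 12 to 20, most of it from Lck. Cd3e, Cd3d, Cd3g, Cd8a and Trbc2 were at or under 3 reads in every sample. The part of these differences in the values of the genes around Rosa26 was not tested, and in bulk samples fewer cells of a type and less RNA per cell cannot be told apart.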

How the data were processed

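RNA of 4 NA MP and 5 WT MP samples was made into libraries with the Illumina TruSeq RNA Sample Preparation Kit and sequenced by the authors, whose processing notes name bcl2fastq, RSEM, DESeq2 and the build mm10. Versions are not given in the sources used here.

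The authors deposited 1 table of gene values described as raw RSEM counts. Its values are instead a signal already scaled between samples: RSEM gene counts divided by a size factor per sample, as the authors' tool DESeq2 computes them. In each sample 97.6% to 97.9% of values above 0 were whole multiples of 1 value (within 0.05 read), and the reciprocals of these units differed by at most 0.0023 from median ratio size factors computed from the table. Undoing the scaling gave 5557701 to 8106138 reads per sample. The library kit does not mark strand.

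A count test had been set as the main test in advance. Since the values are scaled, limma 3.58.1 in R 4.3.3 was used in its place (trend and robust options) on log2(value + 1), for genes with a value of at least 10 in at least 4 samples, with group as the only term, Benjamini‐Hochberg adjustment over 11987 genes and a threshold of 0.05. Fold changes are on that scale, which understates changes of low genes. Confidence intervals (95%) are those of the fit. For a value on its own an exact two‐sided permutation test was run. The ratios between genes were not among the results set in advance. Floors of 3 reads cover counting error only. The fit was tested on simulated data.

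Genes were named and located with GENCODE M21 (GRCm38), which matched 32916 of the 37980 identifiers. Named were the 10 genes, Nup98 and Hoxa10, other genes within 1 Mb past the threshold (at most 10), the 2 largest changes past the threshold of each partner list, and markers by list. Genes named without passing the test were chosen after their values were seen. The 10 genes and all lists were chosen with earlier results of these data known. Replicate numbers 1 to 4 occur in both groups but are not stated to mark the same mouse, litter or day, so the chosen fit has no block for them. Alternatives were library size scaling, no filter or a stricter one, no robust option, thresholds of 0.01 or of a 1.2-fold change, a correction for GC content and length, the block, and leaving out each sample. The pseudocounts 0.5 and 5 and voom on recovered reads were added after seeing the data.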

Additional observations from a re-analysis of the deposited data

Results flagged for a closer look

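Gt(ROSA)26Sor in NA MP replicate 4, at 36.4 normalised counts, lay apart from the other NA MP samples, at 26.7 to 27.6, with a gap of 0.908 of the range of the group, above Dixon's 95% critical value for a group of 4. It was the 1 such value among 24 groups of samples checked, where chance gives about 1.2. Replicate 4 was also the NA MP library with the most reads, 8106138. Without it the log2 fold change of Gt(ROSA)26Sor was -1.12 (adjusted p = 1.62e-07 by limma), against -1.02 with all samples, and the cause was not tested.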

How the results depend on the processing

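Over 21 alternatives the log2 fold change ran from -1.123 to -0.933 for Gt(ROSA)26Sor, -0.551 to -0.470 for Setd5, -0.490 to -0.388 for Thumpd3, -0.279 to -0.188 for Rad18, -0.311 to -0.238 for Mtmr14 and -0.448 to -0.286 for Srgap3. The first 3 passed under each. Tested against a 1.2-fold change, 857 genes passed in place of 4107, 62.8% of them higher in place of 49.4%, and of the genes around Rosa26 only Gt(ROSA)26Sor, Setd5 and Thumpd3 (3 in place of 6) remained. Leaving out each sample gave 5 to 6 genes around Rosa26 and 3625 to 3937 of all genes, and at an adjusted p of 0.01 the counts were 5 and 2857. Of the other genes within 1 Mb (2 with all samples), 4 passed without a filter, and 1 with at least 10 in every sample, against a 1.2-fold change, at an adjusted p of 0.01, and with the block and GC correction together. Leaving out each sample gave 2 to 4, the 4 being without NA MP replicate 4 or WT MP replicate 1, with 2 higher and 2 lower. The cause was not tested. Brpf1, near 0 throughout, turned from -0.00 to 0.002 with voom, and from -0.027 to 0.029 when each sample was left out, above 0 without NA MP replicate 1 (0.029) or 2 (0.004) and WT MP replicate 1 (0.006), 2 (0.001) or 3 (0.008). Scaling by library size alone moved the median of all genes from -0.008 to -0.023.

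Deviations of same‐numbered samples correlated at 0.0062, 0.0031, -0.02 and 0.057, so no shared deviation was seen over all tested genes. A shared mouse, litter or day with a small effect could not be detected in this way. With the replicate block 3693 genes passed, with the same 6 genes around Rosa26 lower, and 3645 when GC content and length were corrected as well, again with 6.

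Not run, since they need unscaled counts, were the other size factors, both count tests set in advance and unrounded counts. Depth limits Lhfpl4 and Cpne9, at no more than 3 reads in a sample, and Gt(ROSA)26Sor rests on 23 to 70 reads. Levels per kilobase moved with the length used by more than 1 SD for all tested genes but Srgap3, which went from 8.87 to 9.84 in WT MPs and from 6.91 to 7.66 in NA MPs.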
